A study of Mus musculus with 20 samples.

Results

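TRBJ1 cluster joins are T cell receptor β chain (TCRβ) rearrangements in which the variable (V) gene segment had been joined, through a diversity (D) segment, to a joining (J) gene of the first of the 2 J gene clusters of the mouse Trb locus. They were taken from the deposited TCRβ clone lists as in-frame clones whose first listed J gene began with TRBJ1-, where in-frame means that the translated CDR3, the loop at the V-D-J junction that contacts the peptide, held neither a stop codon nor a broken frame. Clones of 1 mouse that shared V gene, J gene and CDR3 amino acids were counted once, as 1 clonotype. In 17 mice, 73245 of 250159 clonotypes (29.3%) were TRBJ1 joins, spread over 6 of the 12 J genes seen in frame: 25102 with TRBJ1-1, 14110 with TRBJ1-2, 8601 with TRBJ1-3, 14406 with TRBJ1-4, 5590 with TRBJ1-5 and 5436 with TRBJ1-6. TRBJ1-1 to TRBJ1-5 were the genes whose order was tested, and TRBJ1-6, which the same rule takes, is given by its values.

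The study compared CD8+ T cells of mice that differ in the catalytic β5 subunit of the proteasome, the protease that makes most peptides presented by MHC class I. WT mice carried β5i, the immunoproteasome subunit encoded by Psmb8, and β5t, the thymoproteasome subunit of cortical thymic epithelial cells encoded by Psmb11. β5i-KO mice lacked the former, β5t-KO mice lacked the latter, and BIT mice were homozygous for the β5t-encoding Psmb11 sequence placed in the Psmb8 locus, so that they made β5t where β5i is normally made. All were male and 9 to 12 weeks old, on a B6 background, and each library came from 1 mouse. The labels name lymph nodes as the tissue and TCRbeta-high CD4-CD8+ T cells as the cell type, while the protocol text names both lymph nodes and spleens. Receptor transcripts alone cannot check the cell type or the genotype against marker genes. The mice used were 4 WT, 5 β5i-KO, 4 β5t-KO and 4 BIT (replicates 1, 2, 4 and 5). WT 5, whose table held 1 read, β5t-KO 5, with 11 in-frame clones of which 4 were TRBJ1 joins, and BIT 3, with 411 of which 155 were TRBJ1 joins, were left out. The reads of BIT 3 (1828701) lay within the range of the libraries used, and its 401 clonotypes were more than the 384 of β5t-KO 2, which was kept. Among the 17 libraries, reads ran from 614169 to 2856711, molecules from 8119 to 146469 and clonotypes from 384 (β5t-KO 2) to 39542 (β5i-KO 3), so that a mouse contributed between 107 and 12084 TRBJ1 clonotypes.

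During thymocyte development a D segment is first joined to a J segment, and a V segment is then joined to the D-J product. Each end is trimmed by nucleases, the enzyme TdT adds non-templated (N) bases, and the palindromic P bases of an opened hairpin end may be kept. In the Trb locus each D segment lies just upstream of its own J cluster and constant gene, so that TRBD2 lies downstream of all TRBJ1 genes and direct deletional joining of TRBD2 to a TRBJ1 gene is not possible in an unrearranged locus. The V gene supplies the start of the CDR3 and the J gene its end.

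The germline sequences of the TRBJ1 genes are shown because the lengths and trimming reported further on are counted against them. They were read from GRCm39 with GENCODE gene models. The deposited tables hold no coordinates, and the build named in the labels is mm10, so these positions are from the reference alone. All lie on chromosome 6, on the plus strand, from TRBJ1-1 at 41510798-41510845 to TRBJ1-6 at 41512488-41512540, between TRBD1 (41510135-41510146) and TRBC1 (41515152-41516815), the constant gene of the cluster. TRBD2 follows at 41519097-41519110. Capitals mark the bases that code for the CDR3, up to and including the codon of its last residue, and lower case the rest of the J segment.
TRBJ1-1: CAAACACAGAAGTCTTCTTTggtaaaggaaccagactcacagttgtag
TRBJ1-2: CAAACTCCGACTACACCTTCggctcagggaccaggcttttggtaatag
TRBJ1-3: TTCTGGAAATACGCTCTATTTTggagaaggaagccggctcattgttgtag
TRBJ1-4: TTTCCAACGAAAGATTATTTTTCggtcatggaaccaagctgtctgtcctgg
TRBJ1-5: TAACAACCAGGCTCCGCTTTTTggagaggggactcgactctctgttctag
TRBJ1-6: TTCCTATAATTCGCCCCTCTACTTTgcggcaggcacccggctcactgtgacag

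The CDR3-coding stretch was 20 bases in TRBJ1-1 and TRBJ1-2, 22 in TRBJ1-3 and TRBJ1-5, 23 in TRBJ1-4 and 25 in TRBJ1-6. Among clones with neither J trimming nor P bases at the J end, 91.1% (TRBJ1-1) to 98.7% (TRBJ1-3) carried exactly these bases. The distance from the end of TRBD1 rose along the cluster, from 651 bases for TRBJ1-1 through 788, 1110, 1598 and 1871 for TRBJ1-2 to TRBJ1-5 to 2341 for TRBJ1-6. The heptamer, the part of the recombination signal that touches the coding end, was read as the 7 bases before each J segment on the coding strand. It was CACTGTG before TRBJ1-1, which is the consensus in this orientation, TACTGTG before TRBJ1-5 (6 of 7 bases matching), GGCTGTG before TRBJ1-3 and AGCTGTG before TRBJ1-6 (5 of 7), and TGATGTG before TRBJ1-2 and TGTTGTG before TRBJ1-4 (4 of 7). The full heptamer stood before 1 of the 14 Trb J genes searched (7.14%), and a match of letters is a description and not a measure of recombination.

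For each gene, the clonotype found in the most mice shows how such a join was built. The gene of each join is followed by its V gene, and capitals mark all bases between the end of V and the start of J. The lower case bases on either side were counted as V and J, P bases included.
TRBJ1-1 with TRBV16: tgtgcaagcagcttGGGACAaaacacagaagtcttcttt
TRBJ1-2 with TRBV12-1: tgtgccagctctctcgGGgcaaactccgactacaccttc
TRBJ1-3 with TRBV16: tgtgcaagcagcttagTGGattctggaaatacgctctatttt
TRBJ1-4 with TRBV16: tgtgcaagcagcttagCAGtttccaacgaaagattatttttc
TRBJ1-5 with TRBV1: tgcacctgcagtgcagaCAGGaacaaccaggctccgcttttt
TRBJ1-6 with TRBV13-3: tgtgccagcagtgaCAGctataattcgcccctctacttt

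These clonotypes, defined by V gene, J gene and CDR3 amino acids, were found in 11, 10, 11, 9, 7 and 7 mice, in the order shown. They were chosen for that number. The printed nucleotide sequences themselves were found in 6, 4, 8, 7, 3 and 3 mice, and the clonotypes had 8, 10, 4, 4, 5 and 4 nucleotide versions. Of the distinct TRBJ1 clonotypes, 9.75% were found in 2 or more mice, against 11.2% of the TRBJ2 clonotypes, a description without a test since deeper libraries share more. Within the cluster the share ran from 5.55% with TRBJ1-5 to 12.1% with TRBJ1-2.

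About 3 in 10 clonotypes used a TRBJ1 gene in every genotype. The TRBJ1 share of clonotypes was 29.5%, 29.9%, 29.6% and 26.4% in WT 1 to 4, and 31.3%, 33.6%, 30.4%, 28.2% and 33.6% in β5i-KO 1 to 5. It was 28.9%, 27.9%, 28.2% and 26.6% in β5t-KO 1 to 4, and 29.9%, 30.1%, 25.2% and 27.6% in BIT 1, 2, 4 and 5. The ranges of all 4 genotypes overlapped. Of the 5 β5i-KO mice 4 lay above every mouse used of the other genotypes, while the lowest of them lay below the highest mouse of each other genotype. BIT 3, which was left out, was at 37.7% of its 401 clonotypes, above every β5i-KO mouse. The lowest mouse of each of the 4 genotypes was replicate 4, a number whose meaning the labels do not give. Group means (± SD) were 28.8% ± 1.66 over the 4 WT mice and 28.2% ± 2.29 over the 4 BIT mice. The 5 β5i-KO mice averaged 31.4% ± 2.31, and the 4 β5t-KO mice 27.9% ± 0.983.

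None of the 6 differences between genotypes passed a two-sided exact permutation test over mice after Benjamini-Hochberg adjustment. The largest, β5t-KO minus β5i-KO, was -3.53 percentage points (exact permutation p = 0.0476, adjusted 0.238). BIT minus β5i-KO was -3.22 (exact permutation p = 0.0794, adjusted 0.238) and β5i-KO minus WT was 2.59 (exact permutation p = 0.127, adjusted 0.254). The smallest p this test can give is 0.0286 for 4 against 4 mice and 0.0159 for 4 against 5, so that 1 difference alone among the 6 could not reach an adjusted p under 0.05. The other 3 differences lay between -0.941 and 0.309 points. BIT minus WT was -0.632 points, and 1.26 with BIT 3 included (exact permutation p = 0.686 and 0.746).

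**Figure D1:**
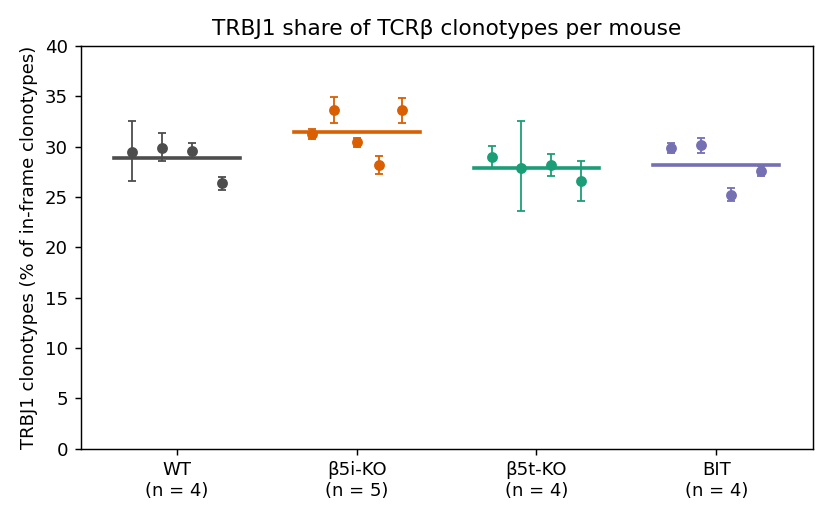
TRBJ1 share of clonotypes in percent for each of the 17 mice, by genotype. Points are mice, vertical bars are 95% Wilson intervals, which cover counting error only, and horizontal lines are group means, which ran from 27.9% in β5t-KO to 31.4% in β5i-KO.

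Within the cluster the genes were used in a steep order that was much alike in all mice. TRBJ1-1, the gene nearest TRBD1, took 9.99% ± 0.979 (SD, n = 17) of all clonotypes, between 8.60% and 12.0% per mouse. TRBJ1-4 took 5.81% ± 0.528, TRBJ1-2 5.58% ± 0.471, TRBJ1-3 3.53% ± 0.431 and TRBJ1-5 2.21% ± 0.215 (SD, n = 17 each), and TRBJ1-6, not in the order test, 2.11% ± 0.329. This order was not that of distance along the chromosome, since TRBJ1-4 stood above TRBJ1-3. All 10 pairs among the 5 tested genes differed by a two-sided exact sign-flip permutation test over mice (100% of pairs). TRBJ1-2 and TRBJ1-4 were the closest neighbours, 0.238 points apart, with TRBJ1-2 the higher in 2 of 17 mice (exact permutation p = 0.00562). This call was lost when clonotypes were counted by nucleotide CDR3 (-0.179 points, TRBJ1-2 higher in 5 of 17 mice, exact permutation p = 0.0507). For the other 9 pairs the exact permutation p was 1.53e-05, the smallest that 17 mice can give.

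**Figure D2:**
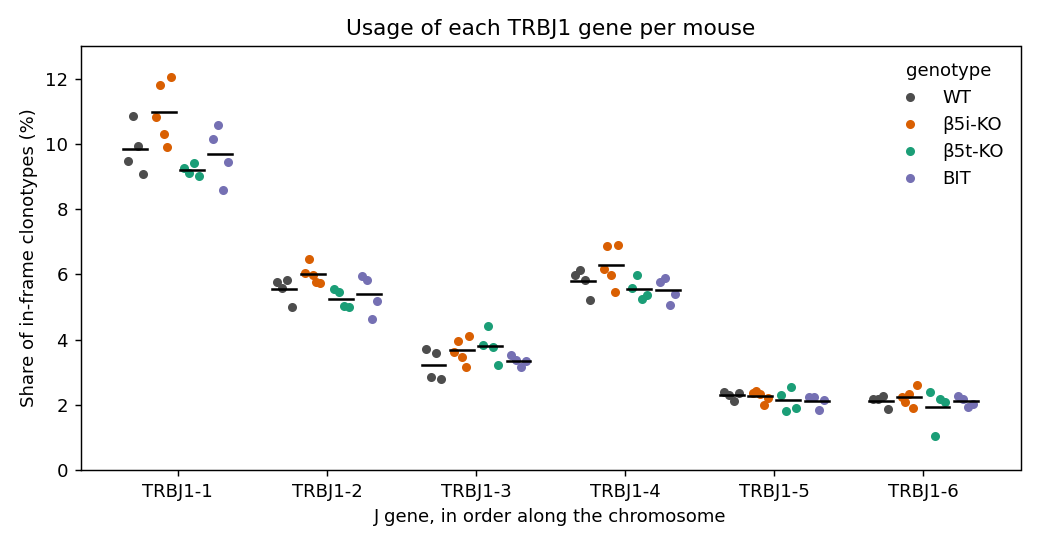
Share of clonotypes in percent for each of the 6 TRBJ1 genes in each mouse, with points coloured by genotype and lines at group means. TRBJ1-1 lies above all others and TRBJ1-5 and TRBJ1-6 lie lowest, near 2.21% and 2.11%.

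Usage of single J genes between genotypes was tested with edgeR's quasi-likelihood test over all 12 J genes, each count set against its library's clonotype total. Among the TRBJ1 genes, TRBJ1-1 had the smallest adjusted p. Its share was 9.47%, 10.9%, 9.94% and 9.09% in WT 1 to 4, 10.8%, 11.8%, 10.3%, 9.91% and 12.0% in β5i-KO 1 to 5, 9.28%, 9.11%, 9.42% and 9.00% in β5t-KO 1 to 4, and 10.2%, 10.6%, 8.60% and 9.46% in BIT 1, 2, 4 and 5. All 5 β5i-KO mice lay above all 4 β5t-KO mice, while the WT and BIT ranges overlapped both. TRBJ1-1 was lower in β5t-KO than in β5i-KO by a log2 fold change of -0.23 (SE 0.07, edgeR adjusted p = 0.0091), 1 of 6 TRBJ1 genes called where 16.7% of all 12 J genes were, which is the same share. DESeq2 also called it, but the call was lost without β5t-KO 1 (edgeR adjusted p = 0.0509) and when clones of 1 molecule were left out.

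In BIT against β5i-KO, which uses the same β5i-KO mice as the comparison before it, 2 of 6 TRBJ1 genes were called, and 16.7% of all J genes. TRBJ1-1 was lower by a log2 fold change of -0.16 (SE 0.05, edgeR adjusted p = 0.0366), and the 2 groups overlapped in the values given above. TRBJ1-4 was lower by -0.16 (SE 0.06, edgeR adjusted p = 0.0454). Its share was 6.17%, 6.88%, 6.0%, 5.45% and 6.91% in β5i-KO 1 to 5 and 5.76%, 5.89%, 5.07% and 5.41% in BIT 1, 2, 4 and 5, so that 1 β5i-KO mouse fell within the BIT range. Both calls were lost under DESeq2, under TMM normalisation, after thinning to equal molecules and among libraries of at least 1000 clonotypes. In the other 4 comparisons no TRBJ1 gene was called by edgeR's quasi-likelihood test or by DESeq2. At an unadjusted p under 0.05, edgeR gave 2 of 6 TRBJ1 genes beside 4 of all 12 J genes when β5i-KO was set against WT, 1 beside 3 of 12 for β5t-KO against WT, and 0 for BIT against either WT or β5t-KO (0 and 2 of 12). These TRBJ1 counts were no larger a share than those over all J genes. Both included TRBJ1-3, whose log2 fold change against WT was 0.20 in β5i-KO (SE 0.08, edgeR adjusted p = 0.127) and 0.25 in β5t-KO (SE 0.11, edgeR adjusted p = 0.105).

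Ranges over mice are given for the remaining genes, and those of TRBJ1-3 overlapped in all 4 genotypes. The TRBJ1-3 share was 2.79% to 3.70% in WT, 3.16% to 4.13% in β5i-KO, 3.21% to 4.43% in β5t-KO and 3.16% to 3.52% in BIT mice. TRBJ1-2 ranged from 5.01% to 5.84%, 5.74% to 6.47%, 5.00% to 5.54% and 4.63% to 5.94% in the same order, so that the β5i-KO mice lay above the β5t-KO mice, with a log2 fold change that did not pass (-0.19, SE 0.08, edgeR adjusted p = 0.0568). TRBJ1-4, whose β5i-KO and BIT values are given above, was at 5.20% to 6.13% in WT and 5.24% to 5.99% in β5t-KO mice. Its log2 fold change in β5t-KO against β5i-KO did not pass either (-0.19, SE 0.08, edgeR adjusted p = 0.0568). TRBJ1-5 lay between 1.82% and 2.55% and TRBJ1-6 between 1.04% and 2.60% over all mice, and the lowest TRBJ1-6 value was that of β5t-KO 2, the library of 384 clonotypes.

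The same test over 248 V-J pairs, 122 of them with a TRBJ1 gene, called 1 TRBJ1 pair in the 6 comparisons, TRBV19 with TRBJ1-1 in β5t-KO against β5i-KO, where 0.806% of all pairs were called. The pair made up 0.882%, 0.804%, 0.832%, 1.12% and 1.00% of clonotypes in β5i-KO 1 to 5 and 0.463%, 0.781%, 0.456% and 0.632% in β5t-KO 1 to 4, of which the value of β5t-KO 2 rests on 3 clonotypes. It was 0.871%, 0.71%, 0.545% and 0.757% in WT 1 to 4 and 0.756%, 0.848%, 0.627% and 0.784% in BIT 1, 2, 4 and 5. The β5i-KO and β5t-KO mice did not overlap, though by a narrow gap, and the other genotypes lay between and across them. The log2 fold change was -0.86 (SE 0.19, edgeR adjusted p = 0.0327). The call was lost without any one of β5i-KO 1, 3, 4 or 5, β5t-KO 1 or 3, or BIT 5. No TRBJ1 pair was called in the other 5 comparisons by edgeR or DESeq2. At an unadjusted p under 0.05, edgeR gave 8 of 122 TRBJ1 pairs beside 15 of all 248 in β5i-KO against WT, 4 beside 12 in BIT against β5t-KO and 2 beside 6 in BIT against β5i-KO. It gave 0 TRBJ1 pairs for β5t-KO or BIT against WT (9 and 0 of 248). None of these counts stood much above the share over all pairs.

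TRBJ1 and TRBJ2 joins differed in their V partners within the same mice. With both clusters of a mouse as 2 columns and mouse as a block, edgeR's quasi-likelihood test called 18 of 23 V genes (78.3%), of which 8 (34.8%) took a larger share of TRBJ1 than of TRBJ2 clonotypes and 10 (43.5%) a smaller one. The V genes used most with TRBJ1 were TRBV16 (13% ± 2.92, SD, n = 17), TRBV13-3 (11.5% ± 1.58) and TRBV13-2 (10.8% ± 0.857). TRBV16 itself did not pass, nor did TRBV1, TRBV21, TRBV23 and TRBV24.

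The strongest difference was that of TRBV17, which made up 3.30% ± 0.610 of TRBJ1 and 6.12% ± 1.20 of TRBJ2 clonotypes (SD, n = 17). It was higher with TRBJ1 in 0 of 17 mice (log2 ratio -0.85, SE 0.04, edgeR adjusted p = 1.42e-19). TRBV14 was also lower with TRBJ1 in every mouse, at 1.79% ± 0.447 against 2.85% ± 0.418 (log2 ratio -0.55, SE 0.05, edgeR adjusted p = 3.69e-12). TRBV12-2 was higher with TRBJ1 in 1 of 17 mice, at 2.46% ± 1.4 against 3.58% ± 1.56 (log2 ratio -0.62, SE 0.05).

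In the other direction, TRBV19 made up 6.61% ± 1.69 of TRBJ1 and 4.43% ± 0.989 of TRBJ2 clonotypes, and was higher with TRBJ1 in 16 of 17 mice (log2 ratio 0.58, SE 0.04, edgeR adjusted p = 1.59e-16). TRBV29 made up 7.23% ± 0.943 and 5.39% ± 1.04 (log2 ratio 0.49, SE 0.03, 16 of 17 mice). Seen from the V side, 38.1% of TRBV19 and 35.9% of TRBV29 clonotypes used a TRBJ1 gene on average, against 18.7% of TRBV17 (11% to 27.3% per mouse) and 20.8% of TRBV12-2 and of TRBV14.

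Non-productive clones, which carry a stop codon or a broken frame and whose protein cannot have been selected, gave a TRBJ1 share within V in the same order for these genes when summed over mice. It was 13.1% for TRBV17 (28 of 213 clones, 95% Wilson interval 9.25% to 18.3%). It was 19.7% for TRBV14 (23 of 117, interval 13.5% to 27.8%) and 22.4% for TRBV12-2 (38 of 170, interval 16.7% to 29.2%). It was 28.9% for TRBV19 (90 of 311, interval 24.2% to 34.2%) and 27.6% for TRBV29 (34 of 123, interval 20.5% to 36.1%). Every interval but that of TRBV17 held 25.8%, the mean TRBJ1 share of non-productive clones over the 17 mice. The order did not hold for all called V genes. Of those higher with TRBJ1, TRBV20 was at 14.8% (31 of 210), TRBV13-2 at 18.2% (79 of 434) and TRBV13-3 at 19.1% (70 of 366). TRBV31, at 39.0% (435 of 1115), TRBV2 and TRBV26 went with the order and lay above the mean of 25.8%. Of those lower with TRBJ1, TRBV15 was at 30% (108 of 360), TRBV30 at 28.6% (18 of 63) and TRBV5 at 27.2% (103 of 379). TRBV12-1, TRBV3, TRBV4 and TRBV13-1 lay below that mean. These counts are a description over few clones, and the intervals cover counting error only, as all such intervals here do.

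Single TRBJ1 genes differed in V partners from the other J genes. Those others include the TRBJ2 genes, so that these calls in part repeat the difference between the clusters. V partners were not tested among the TRBJ1 genes alone. Each of the 5 genes was compared with all other J genes of the same mice over 23 V genes, and edgeR's quasi-likelihood test called 77 of the 115 combinations (67.0%), 16 with TRBJ1-1 (69.6%), 18 with TRBJ1-2 and 18 with TRBJ1-3 (78.3% each), 10 with TRBJ1-4 (43.5%) and 15 with TRBJ1-5 (65.2%). TRBV17 and TRBV14 were lower with all 5 genes and TRBV29 higher with all 5. TRBV12-2 was called lower with 4 and higher with 1, and TRBV31 was called higher with 4. Of the 23 V genes, 12 were called higher with some TRBJ1 genes and lower with others, 5 were called lower only, 5 higher only, and TRBV24 was not called.

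With TRBJ1-1, the leading partner was TRBV19, at 7.57% of its clonotypes against 4.79% with all other J genes (log2 ratio 0.56, SE 0.04, edgeR adjusted p = 1.67e-13), higher in 17 of 17 mice. TRBV3 was lower with TRBJ1-1 in every mouse, at 4.2% against 6.39% (log2 ratio -0.43). TRBV17, TRBV12-2 and TRBV5 followed among the 5 leading V genes, with log2 ratios of -0.52, -0.55 and -0.76.

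The 3 leading V genes of TRBJ1-2 were used sparingly with it. TRBV17 made up 3.13% against 5.43% (log2 ratio -1.03), TRBV15 2.93% against 5.52% (log2 ratio -1.03) and TRBV14 1.19% against 2.62% (log2 ratio -1.35, SE 0.11, edgeR adjusted p = 5.88e-28). TRBV13-3 was its most frequent partner, at 13.1% against 10.1%, higher in 17 of 17 mice (log2 ratio 0.35), and TRBV29 had a log2 ratio of 0.46.

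TRBJ1-3 and TRBJ1-5 were each joined less to members of the TRBV12 family. TRBV12-2 made up 1.12% of TRBJ1-3 clonotypes against 3.33% of all others and was lower in every mouse (log2 ratio -1.21, SE 0.13, edgeR adjusted p = 6.34e-18), and TRBV12-1 had a log2 ratio of -0.78. TRBV12-1 made up 1.80% of TRBJ1-5 clonotypes against 4.12%, again lower in every mouse (log2 ratio -1.28, SE 0.13, edgeR adjusted p = 4.26e-19). These V genes are near-identical in parts of their sequence, and reads may have been split between them by the authors' alignment.

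The other leading partners of TRBJ1-3 were TRBV13-1 (log2 ratio -0.74), TRBV29 (0.55, at 8.90% against 5.82%) and TRBV19 (0.51). With TRBJ1-5, TRBV17 was at 2.57% against 5.36% (log2 ratio -1.12) and TRBV1 at 6.42% against 4.15% (0.63), followed by TRBV13-2 (0.31) and TRBV31 (0.59). TRBJ1-4 had the fewest calls, led by TRBV17 at 3.19% against 5.43% in the same direction in all mice (log2 ratio -0.53), TRBV12-2 (-0.64), TRBV29 (0.32), TRBV19 (0.30) and TRBV30 (-0.99). When molecules were counted in place of clonotypes, 31 combinations were called and not 77. Among the partners named, TRBV13-2 and TRBV31 with TRBJ1-5 then fell to log2 ratios of 0.05 and 0.17 (edgeR adjusted p = 0.867 and 0.682). TRBV1 with TRBJ1-5 (0.60), TRBV29 with TRBJ1-2 (0.38) and TRBV19 with TRBJ1-3 (0.35) and TRBJ1-4 (0.20) lost their call too. TRBV13-2 with TRBJ1-5 also lost it after thinning (0.23, edgeR adjusted p = 0.0525).

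The most frequent V-J pair of a gene joined it to TRBV16 or TRBV13-3. TRBV16 made up 14.1% ± 3.87 of TRBJ1-1, 14.5% ± 4.88 of TRBJ1-3, 13.9% ± 3.28 of TRBJ1-4 and 13.6% ± 5.63 of TRBJ1-5 clonotypes (SD, n = 17 each). TRBV13-3 made up 13.1% ± 3.11 of TRBJ1-2 and 15% ± 4.57 of TRBJ1-6 clonotypes.

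**Figure D3:**
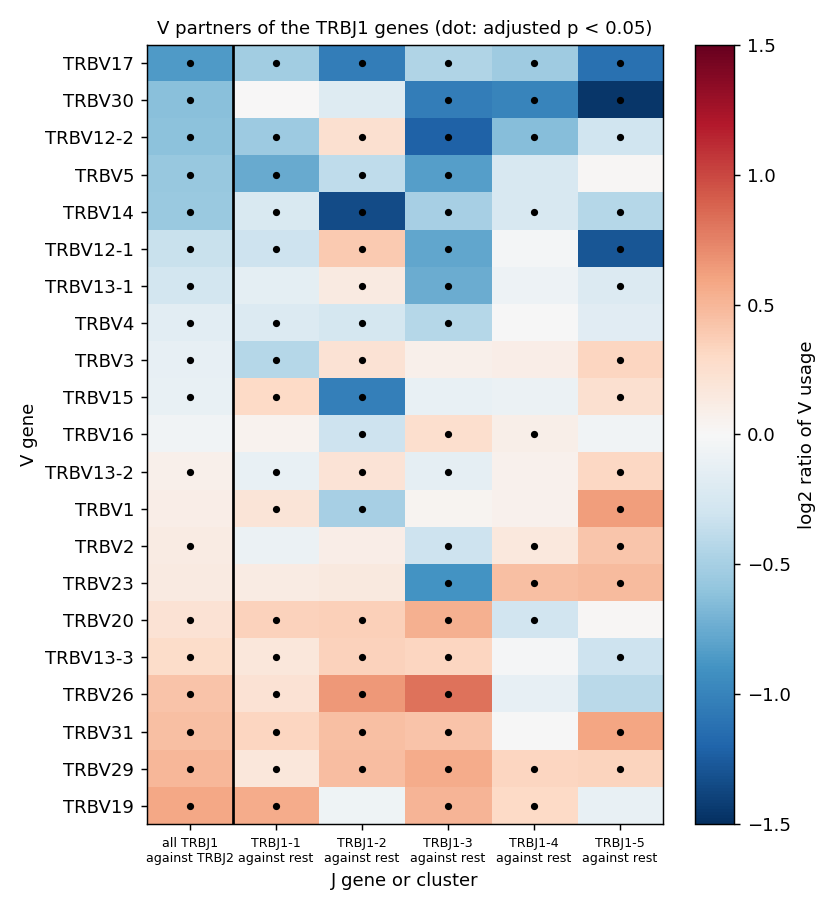
Log2 ratio of each V gene's share among the clonotypes of 1 TRBJ1 gene over its share among all other J genes, as a heat map with V genes in rows and the 5 TRBJ1 genes in columns, beside a first column for all TRBJ1 against TRBJ2 joins. Dots mark an adjusted p under 0.05, and TRBV21 and TRBV24 are not drawn. TRBV17 and TRBV14 are below 0 and TRBV29 above 0 in all 5 gene columns, while 12 V genes were called in both directions.

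TRBJ1 joins had shorter CDR3 than TRBJ2 joins in every mouse. The mean length per mouse was 13.70 to 13.90 residues for TRBJ1 and 13.89 to 13.99 for TRBJ2, a difference of -0.174 residues ± 0.044 (SD, n = 17), with TRBJ1 longer in 0 of 17 mice (two-sided exact sign-flip permutation p = 1.53e-05). In bases, the J part of TRBJ1 joins, P bases included, was longer by 1.02 ± 0.123 (19.2 against 18.2). The part matched to a D gene, counted as 0 where no D was listed, was shorter by 1.69 ± 0.146 (5.11 against 6.79). Both held in 17 of 17 mice. No D was listed for 32.5% of TRBJ1 and 21.0% of TRBJ2 clonotypes on average, so that this difference includes how often a D was listed. The length of listed D matches alone was not tested. The V part differed little, by -0.0304 bases ± 0.0682. The whole CDR3 was 41.3 bases with TRBJ1 and 41.8 with TRBJ2, a difference of -0.522 ± 0.132.

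The 5 tested genes all differed from each other in CDR3 length (100% of 10 pairs, exact sign-flip permutation test). TRBJ1-1 gave the shortest loops, at 13.21 residues ± 0.069 (SD, n = 17), followed by TRBJ1-2 at 13.60 ± 0.073, TRBJ1-5 at 13.91 ± 0.174, TRBJ1-3 at 14.20 ± 0.129 and TRBJ1-4 at 14.36 ± 0.105. TRBJ1-6, with the longest germline stretch, was at 14.38 ± 0.105. The most frequent length was 14 residues with TRBJ1-1 (32.4% of its clonotypes) and 15 residues with TRBJ1-4 (32.4%). Loops of 12 residues made up 17.9% of TRBJ1-1 clonotypes, against 5.6% to 11.6% for the other TRBJ1 genes.

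**Figure D4:**
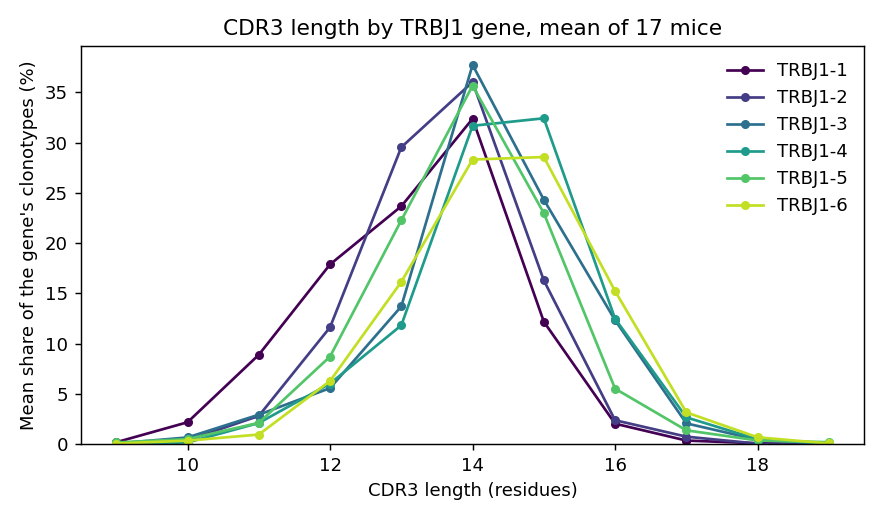
Distribution of CDR3 length in residues among the clonotypes of each TRBJ1 gene, in percent, averaged over mice. TRBJ1-1 peaks at 14 residues, with 17.9% at 12, and TRBJ1-4 peaks at 15.

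The length of the J end after trimming did not follow the germline length alone, because the genes were trimmed to different extents. The mean loss was 2.81 bases with TRBJ1-1 and with TRBJ1-4, 2.61 with TRBJ1-5, 1.66 with TRBJ1-2, 1.5 with TRBJ1-3 and 4.03 with TRBJ1-6. Of the 10 pairs tested 9 differed (90%), and TRBJ1-1 and TRBJ1-4 did not pass (exact sign-flip permutation p = 0.989). An untrimmed J end was found in 51.2% of TRBJ1-3 and 40.9% of TRBJ1-2 clonotypes, against 26.1% of TRBJ1-1, 31.3% of TRBJ1-4, 27.1% of TRBJ1-5 and 21.2% of TRBJ1-6. P bases at the J end were present in 26.7% of TRBJ1-3 and 25.1% of TRBJ1-2 clonotypes and in 11.5% to 19.96% with the other genes. As seen in the germline sequences above, TRBJ1-1 and TRBJ1-2 offer the same number of CDR3 bases and start with the same letters CAAAC. Their J parts, P bases included, were nevertheless 17.4 and 18.7 bases.

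N addition was similar among the TRBJ1 genes, between 2.97 bases with TRBJ1-3 and 3.20 with TRBJ1-5 and TRBJ1-6. Of the 10 pairs tested 5 differed (50% of pairs). TRBJ1-1 (3.15) and TRBJ1-5 each had more N bases than TRBJ1-2 (3.03) and TRBJ1-3, and TRBJ1-4 (3.12) had more than TRBJ1-3. These pairs were not tested among clonotypes with a D gene listed, and joins with none count every base between V and J as N.

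Against TRBJ2, TRBJ1 joins had 0.173 more N bases, 3.10 ± 0.0837 against 2.93 ± 0.0960 (SD, n = 17), in 17 of 17 mice (two-sided exact sign-flip permutation p = 1.53e-05). The sign of this difference rested on how D was assigned. A join with no D gene listed counts every base between V and J as N, and no D was listed for 29.0% to 35.3% of TRBJ1 clonotypes per mouse but for 19.1% to 22.7% of TRBJ2 clonotypes. Among clonotypes with a D gene listed, TRBJ1 joins had fewer N bases, by -0.0697 (higher in 2 of 17 mice, exact sign-flip permutation p = 0.0023). All bases between V and J together, D included, were 1.52 fewer with TRBJ1, 8.21 against 9.73.

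**Figure D5:**
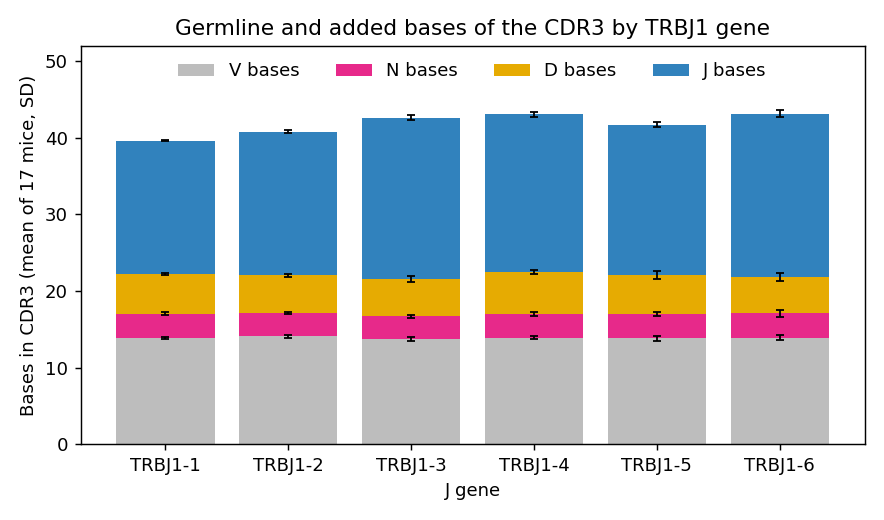
Mean number of CDR3 bases assigned to V, N, D and J for each TRBJ1 gene, stacked, as means of 17 mice with SD bars. The V, N and D parts are of similar height in all 6 genes, and the J part runs from 17.4 bases with TRBJ1-1 to 21.3 with TRBJ1-6. Joins with no D gene listed count as having no D bases.

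The D gene listed first was TRBD1 for nearly all TRBJ1 joins with a D gene. The share listed as TRBD2, the D segment downstream of the cluster, was 3.95% to 10.7% per mouse among TRBJ1 joins and 56.1% to 62.8% among TRBJ2 joins, a difference of -49.8 percentage points in the same direction in all 17 mice (exact sign-flip permutation p = 1.53e-05). The 4178 TRBJ1 clonotypes with TRBD2 listed first matched it over 6.99 bases on average, and 26.5% of them listed both D genes. In 16.1% the match was longer than 8 bases. The 80723 TRBJ2 clonotypes with TRBD2 matched it over 9.39 bases, 57.2% over more than 8, and 6.55% listed both. The D segments share most of their letters, GGGACAGGGGGC for TRBD1 and GGGACTGGGGGGGC for TRBD2, and how far short matches move this share was not tested.

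CDR3 length and N addition of TRBJ1 joins did not pass the test between any genotypes. Mean length ran from 13.76 residues (BIT) to 13.80 (β5t-KO). The closest to the threshold was N addition in β5i-KO against WT, 3.16 ± 0.037 (SD, n = 5) against 3.08 ± 0.048 (SD, n = 4) bases, a difference of 0.0834 (exact permutation p = 0.0317, adjusted over the 6 comparisons 0.190).

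TRBJ1 joins took a smaller part of the molecules than of the clonotypes. The difference was -1.04 percentage points ± 0.637 (SD, n = 17), and the share by molecules was the higher in 1 of 17 mice (two-sided exact sign-flip permutation p = 6.1e-05). TRBJ1-1 (-0.361 points, lower in 15 of 17 mice) and TRBJ1-4 (-0.297 points, 15 of 17) made up most of it, while TRBJ1-3 moved by -0.0249 points, lower in 10 of 17. TRBJ1 clonotypes held 6.26 ± 4.79 molecules on average and TRBJ2 clonotypes 6.64 ± 5.28 (SD, n = 17), lower with TRBJ1 in 16 of 17 mice. Of the 170 clonotypes that were among the 10 largest of a mouse, 40 were TRBJ1 joins. The TRBJ1 share of all clonotypes was 29.2% on average, and this count was not tested. In RNA from many cells, more cells of a clone and more receptor RNA per cell cannot be told apart.

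TRBJ1 genes were more frequent among in-frame than among non-productive clones, here counted by nucleotide sequence. Their share was 29.1% ± 2.32 of in-frame and 25.8% ± 4.30 of non-productive clones (SD, n = 17), a difference of 3.26 percentage points with 14 of 17 mice higher (two-sided exact sign-flip permutation p = 0.000427). Non-productive clones numbered 28 to 1317 per mouse and 7708 in all. Among clones of at least 2 molecules the difference was -1.30 points (exact sign-flip permutation p = 0.398), so that the call did not hold without clones seen in 1 molecule. With out-of-frame clones alone as the non-productive set it was 2.74 points (exact sign-flip permutation p = 0.0021).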

How the data were processed

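CD8+ T cells of individual mice were sorted by the authors, and libraries were made from total RNA with Takara's SMARTer kit for mouse TCR α and β profiling. The deposited tables list 1 clone per row with its V, D, J and C genes, its CDR3, its read count, its count of unique molecules and the corresponding fraction of each. The counts are not normalised, and the deposited fractions were not tested. The layout is that of MiXCR, whose version and settings are not given in the sources used here. The TCRα tables were not used. C gene names carry no information on the cluster, since 99.9% of TRBJ1 clones list TRBC2 first.

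Clonotypes were counted with Python 3.11.15, pandas 2.3.3 and NumPy 2.4.6, and 0.0214% of clones that list several V or J genes were placed by the first. N bases are those between V end and J begin less the listed D match, and P bases count as V or J. Counts of clonotypes were tested with edgeR 4.0.16 in R 4.3.3 (quasi-likelihood test, library size normalisation, at least 5 clonotypes in at least 4 libraries, Benjamini-Hochberg, threshold 0.05), all genotypes in one fit. Single values per mouse were tested with exact permutation or sign-flip tests, checked against SciPy 1.17.1. Figures were drawn with matplotlib 3.10.9. The scripts were tested on simulated data. No pair of libraries of 1 genotype held identical counts (0 of 28 pairs). Individual mice are the replicates.

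V genes named are, for each test, at most the 5 called with the smallest p. Others are named for their frequency, for not passing or as limits to a result. Alternatives were DESeq2 1.42.0, TMM, no filter, clonotypes by nucleotide CDR3, clones listing 1 V and 1 J gene, clones of at least 2 molecules, weighting by molecules, thinning to 7669 molecules per library, only the compared groups, a replicate block, with BIT 3, and leaving out each mouse. 3 more were added after seeing the data: clones with a D gene listed, all bases between V and J for the genotype comparisons, and the 15 libraries of at least 1000 clonotypes. The TRBJ1 genes and the lists were chosen with earlier results of these data known. WT 5, β5t-KO 5 and BIT 3 were left out by the rule that chose the joins. Depth alone does not set BIT 3 apart from the libraries used, and its effect is given as an alternative. Precision follows depth: the share of β5t-KO 2 rests on 384 clonotypes.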

Additional observations from a re-analysis of the deposited data

Results flagged for a closer look

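In 3 of the 56 groups of 4 or 5 mice examined, 1 mouse stood far from the rest of its genotype, and chance alone gives about 1 in 20. The TRBJ1 share of clonotypes was 26.4% in WT 4, against 29.5% in the nearest WT mouse. The CDR3 length difference between TRBJ1 and TRBJ2 was -0.0817 residues in WT 1, a library of 271 TRBJ1 clonotypes, against -0.197 in the nearest WT mouse. The TRBJ1 share of in-frame minus that of non-productive clones was 6.21 percentage points in β5t-KO 4 and 0.386 in the nearest β5t-KO mouse.

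Of 30 differences between genotypes in the within-mouse contrasts of TRBJ1 joins, 1 had an unadjusted p under 0.05. The TRBD2 share among TRBJ1 joins minus that among TRBJ2 joins was 2.05 percentage points higher in β5i-KO than in WT (exact permutation p = 0.0476, adjusted 0.381), and no difference passed after adjustment.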

How the results depend on the processing

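The difference in CDR3 length kept direction and call under all 7 alternatives run. Those in TRBD2 share and molecule share did so too, but each had only 1 alternative, nucleotide CDR3 for the first and reads for the second. N addition against TRBJ2 reversed to -1.52 bases over all bases between V and J and to -0.0697 among clones with a D gene listed. In-frame minus non-productive TRBJ1 share reversed to -1.30 points with clones of at least 2 molecules, where 1 TRBJ1 gene each was called in β5i-KO and β5t-KO against WT. The 2 TRBJ1 genes called in BIT against β5i-KO became 1 with BIT 3 and 0 weighted by molecules, with at least 2 molecules, thinned, among libraries of at least 1000 clonotypes, with TMM, with DESeq2 and with only the compared groups. The 1 called in β5t-KO against β5i-KO became 2 weighted by molecules, 0 with at least 2 molecules and 3 with only the compared groups. The TRBJ1 pair of that comparison became 0 weighted by molecules, with at least 2 molecules, thinned and with only the compared groups. V genes called between the clusters, 18 in the main test, ranged from 14 to 21 over 8 alternatives. V partners of single genes called fell from 77 to 31 weighted by molecules, and pairs of genes that differed in share from 10 to 9 by nucleotide CDR3. The causes were not tested.

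With a replicate block, TRBJ1 genes called in β5t-KO against β5i-KO became 3, TRBJ1 pairs there 3 and in BIT against β5t-KO 2. Mice with the same number correlated at -0.0467 to 0.735 (median 0.189, 14 of 22 pairs over 0.1). Others correlated at -0.668 to 0.689 (median -0.0562, 23 of 86 over 0.1), and 7 of 17 mice correlated best with their own number. All 6 pairs numbered 4 were over 0.1. The numbers were not taken as pairs because the labels give them no meaning and not every pair was over 0.1. Same-numbered mice did tend to deviate together, though the 2 ranges overlapped, and a shared factor was not tested.

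Leaving out 1 mouse at a time, TRBJ1 genes called ranged from 0 to 3 in β5i-KO against WT, 0 to 1 in β5t-KO against WT, 0 to 3 in BIT against β5i-KO and 0 to 3 in β5t-KO against β5i-KO, and TRBJ1 pairs from 0 to 2 in the last. V genes called between the clusters ranged from 18 to 20. The differences ranged from -0.180 to -0.170 residues in length, 0.163 to 0.181 N bases, -50.1 to -49.5 points in TRBD2 share, -1.13 to -0.961 points by molecules and 2.70 to 3.50 points in frame. The value of β5t-KO 2 for the TRBV19 and TRBJ1-1 pair rests on 3 clonotypes.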

Other observations

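BIT 3, left out of the comparisons, had 155 TRBJ1 joins among 411 in-frame clones.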
